A study of Vitis vinifera with 40 samples.

Results

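The seedling with epicotyl (EP) is the stage of grapevine somatic embryogenesis at which the first stem segment above the cotyledons appears. The genes described here are the 150 genes, of 29971 in the count table, that peaked most sharply at EP. They were chosen by these same counts: each count was divided by the DESeq2 size factor of its library, a factor that makes the typical gene equal between libraries, and a gene was kept if its stage mean was highest in EP and at least 100. Of the 2828 genes that met both conditions, the 150 with the largest ratio of the EP mean to the second highest stage mean, each with 1 added, make up the list. The peak at EP is therefore a property of the choice, and differences between EP and other stages are given as a description, with no test. Tests were run on comparisons that contain no EP library, although the stage means in these comparisons also entered the choice, as the second highest mean.

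All samples came from *Vitis vinifera* L. cultures in which embryos form from somatic tissue, here immature anthers of "Malvasia Istriana", and each sample combined 50 to 70 embryos or plants. In the growth conditions that the labels give, early induction (EI), pre-globular (PG), globular 1 (G1) and globular 2 (G2) material was kept on auxin in constant dark, and heart (H), torpedo 1 (T1), torpedo 2 (T2) and cotyledonary 1 (C1) embryos on hormone-free medium in constant dark. Cotyledonary 2 (C2) embryos had hormone-free medium and long days, and seedlings (S), EP and juvenile plants (JP) had gibberellin and long days. By the study's methods, the induction medium held a cytokinin (BAP) beside the auxins, and the germination medium an auxin (IAA) beside the gibberellin. Light and stage, and hormone and stage, cannot be told apart across these steps. C2 and EP had 5 replicates and each other stage 3, which makes 40 libraries in all. The labels call all of them somatic embryos, but S, EP and JP are germinated plants in the study's own staging, which rests on root hairs, the epicotyl and first leaves.

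The epicotyl arises from the shoot apex once the seedling has germinated. Its growth in plants is driven by cell elongation, for which gibberellins, auxins and brassinosteroids are the best known promoters, and the emerging organs cover themselves with a cuticle of cutin and waxes. Leaf primordia of the young shoot build photosynthetic membranes at the same time.

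The EP libraries were not alike, and this bears on every value below. Total counts per library lay between 13774534 and 68058022, and both limits belonged to EP, with 17279403, 15520847, 13774534, 48074612 and 68058022 counts in replicates 1 to 5. The size factors were 0.271, 0.224 and 0.212 in EP replicates 1 to 3 and 1.88 and 3.48 in replicates 4 and 5, so that the total divided by the size factor was 63752812, 69361391 and 64855388 in the former and 25542034 and 19578786 in the latter. A single gene, VIT_13s0019g02630, took 26.4%, 22.9%, 19.9%, 14.2% and 8.98% of the counts in EP replicates 1 to 5. All counts below are on the size-factor scale, called normalised counts, unless a share of the library is named. As a check of the stage, LHCA2 (VIT_01s0010g03620), which encodes a light-harvesting protein of photosystem I, had a normalised count of 8.13 ± 4.26 (SD, n = 3) in C1, 182 ± 136 (n = 5) in C2, 1717 ± 579 (n = 3) in S, 15707 ± 1328 (n = 5) in EP and 24271 ± 10090 (n = 3) in JP. The EP libraries, from 13392 to 16684, lay close together for this gene, in contrast to most of the 150 genes. In these whole-plant samples, fewer cells of a type and less RNA per cell cannot be told apart.

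Across the 150 genes, the ratio of EP to the second highest stage ran from 12.7 down to 3.25, with a median of 4.07, and the EP mean ran from 101 to 923833, with a median of 482. The peak stood between its neighbours: the second highest stage was JP for 74 genes and S for 52, whereas C2 was second for 6 and a dark stage for 18. The median gene had 16% of its EP mean in S and 18.9% in JP, but 5.54% in C2, 1.48% in C1 and 0.728% in T1. In the 24 dark libraries, 65 genes had a mean normalised count under 10. Scaled by total counts in place of size factors, EP was the highest stage for 149 of the 150 genes and the median ratio, with nothing added, was 2.62 in place of 4.13. This change of scale moved the median log2 difference between EP and S over the 22733 genes with a mean count over 10 from 0.13 to -0.15, and that of the 150 genes from 2.65 to 1.87. The limit of the list was not a gap. VIT_10s0092g00220, VIT_13s0019g03060 and VIT_18s0001g15230 were the last inside, with ratios of 3.27, 3.25 and 3.25, and VIT_11s0052g01580, VIT_18s0166g00260 and VIT_17s0000g09800 the first outside, with 3.24, 3.22 and 3.22.

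**Figure D1:**
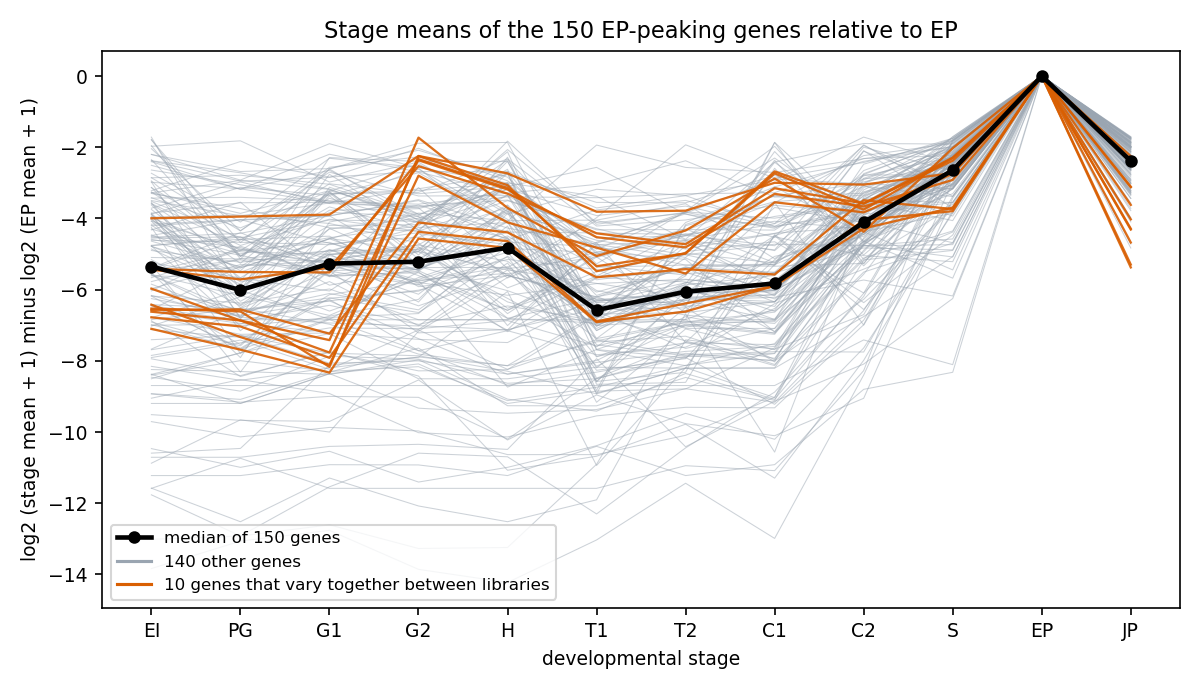
Stage means of the 150 genes relative to EP (log2 scale, 1 added) over the 12 stages in developmental order. Thin lines are genes, the thick line their median, and the 10 orange lines genes that vary together between libraries. All lines meet at 0 in EP because the genes were chosen that way, and the median falls lowest in T1.

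The gene with the sharpest peak was VIT_15s0048g01210. Its normalised counts were 2778, 2641, 1681, 605 and 232 in EP replicates 1 to 5, a mean of 1588 ± 1155 (SD, n = 5). They were 109, 96.9 and 167 in S, 99.7, 103 and 84.2 in JP, and 64.5, 67.8, 70.5, 7.05 and 3.01 in C2. All EP libraries lay above all others, and no dark library exceeded 4.94. The gene VIT_15s0048g01180, whose identifier lies 30 numbers away on the same scaffold, was number 7 in rank, with 2579, 2574, 1752, 653 and 806 in EP and 244, 182 and 192 in JP. In S it had 11.9, 1.47 and 49.7, all below the S libraries of its neighbour. The sources used here give no name or function for either gene, and whether reads were shared between such neighbours was not tested.

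Number 2 in rank, VIT_08s0040g02840, had 2918, 2954, 2505, 755 and 547 in EP and 237, 235 and 175 in S, and H was its highest dark stage with 127, 201 and 138. VIT_18s0001g01010 was low in all stages but EP. It had 162, 147, 61.2, 113 and 46 in EP and no more than 15.4 in any other library. VIT_18s0001g00340 had 801, 804, 297, 511 and 243 in EP and at most 107 elsewhere, with up to 53.6 in H. VIT_03s0091g00750 gave 509, 349, 240, 118 and 37.7 in EP and up to 76.3 in C2, above its lowest EP library. VIT_03s0017g01950 likewise overlapped, with 251, 282, 108, 40.4 and 17 in EP and up to 26.4 in C2. The other 3 of the first 10 were counted in all 40 libraries, at 65.6 or more for VIT_12s0035g02010, 153 or more for VIT_11s0037g01180 and 308 or more for VIT_04s0210g00030. VIT_12s0035g02010 had 13751, 31720, 6168, 2667 and 246 in EP and up to 1955 in JP, and VIT_11s0037g01180 had 74565, 227468, 26823, 18250 and 1607 in EP and up to 11855 in JP. EP replicate 5 of both lay below all JP libraries.

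None of the 150 genes is among the 45 genes paired with a name in the sources used here, and 8 are among the 1075 genes with gene ontology (GO) terms at hand, whose term lists are in part cut short.

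Both monooxygenases with hormone terms were highest in EP replicates 1 and 2. VIT_11s0065g00130, annotated as a monooxygenase of brassinosteroid biosynthesis and homeostasis, had 1874, 1582, 240, 859 and 675 in EP, against 220, 164 and 235 in JP and 55.7, 29.4 and 54.2 in S. All 5 lay above the other 35 libraries, EP replicate 3 by a narrow margin over JP. Its highest dark libraries were 206 in EI and 191 in H, T1 and T2 held between 0 and 4.1, and its level differed between the dark stages (edgeR quasi-likelihood F test, adjusted p = 0.000644). It rose from S to JP by 2.02 ± 0.29 (log2 fold change ± SE, adjusted p = 0.000649). From C2 to S it rose by 2.02 ± 0.63 (adjusted p = 0.0393), a call that was lost without any 1 of the libraries other than C2 replicate 3, with a log2 fold change between 1.75 and 2.27 and an adjusted p between 0.0563 and 0.124. VIT_07s0104g01260 is annotated as a monooxygenase with terms for auxin biosynthesis, response to cytokinin and brassinosteroid signalling. It had 4981, 4826, 1987, 606 and 437 in EP, and replicates 4 and 5 overlapped with G1 (698, 866 and 496) and EI (270, 794 and 610). It rose from C2 to S by 2.14 ± 0.22 (adjusted p = 0.000716), from between 65.1 and 91 to 360, 225 and 433, and had 267, 493 and 276 in JP.

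VIT_06s0080g00120, annotated to wax and suberin biosynthesis and to an oxidoreductase acting on aldehyde groups in the endoplasmic reticulum, was the most even of the 8 within EP. Waxes and suberin are the water barriers of shoot and root surfaces. Its counts were 3081, 2927, 2891, 1821 and 1347 in EP, 360, 412 and 321 in S and 249, 448 and 268 in JP, with no overlap. From C2 to S its log2 fold change was 0.54 ± 0.29 (adjusted p = 0.188) and from S to JP -0.33 ± 0.25 (adjusted p = 0.282), so neither step passed the test. Without C2 replicate 3 the former was 0.84 (adjusted p = 0.00894), and without JP replicate 2 the latter was -0.62 (adjusted p = 0.0211). Its level differed between the dark stages (adjusted p = 1.45e-05), with a maximum of 190 in H. VIT_16s0098g01910, annotated to the cell wall, had 778, 688, 363, 197 and 100 in EP and 83.6, 55.8 and 119 in S, the highest of which lay above EP replicate 5. It rose from C2 to S by 3.09 ± 0.60 (adjusted p = 0.00693).

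VIT_08s0007g05000, annotated to methionine adenosyltransferase activity, encodes by that term an enzyme that makes S-adenosylmethionine, the methyl donor of lignin synthesis and the precursor of ethylene and polyamines. It had 3468, 3620, 2105, 1099 and 562 in EP and 564, 513 and 568 in JP, so that EP replicate 5 lay within the JP range. It increased at 3 successive tested steps that contain no EP library: by 1.84 ± 0.40 from C1 to C2 (adjusted p = 0.0219), by 1.65 ± 0.23 from C2 to S (adjusted p = 0.00179) and by 0.69 ± 0.13 from S to JP (adjusted p = 0.00316, and 0.193 in 1 fit of all 40 libraries). The call from C1 to C2 was lost without C1 replicates 2 or 3 or C2 replicates 1 or 2, with an adjusted p from 0.0508 to 0.0799. VIT_13s0019g04570, annotated to diamine N-acetyltransferase activity and putrescine catabolism, a branch of polyamine breakdown, was near 0 in all dark libraries and had 275, 77.8 and 512 in S. It rose from C2 to S by 4.41 ± 0.85 (adjusted p = 0.00674). From S to JP its log2 fold change was -1.52 ± 0.64 (adjusted p = 0.0704), and -1.98 without S replicate 2 (adjusted p = 0.00922). In EP it had 793, 871, 2557, 476 and 485, highest in replicate 3. VIT_04s0023g01240, annotated as a UDP-glycosyltransferase acting on quercetin, a flavonol, had 303, 344, 485, 59.5 and 46.3 in EP and 28.3, 112 and 62.3 in JP, so replicates 4 and 5 overlapped with JP. Its changes from C2 to S and from S to JP did not pass the test (adjusted p = 0.144 and 0.169), although the former did without C2 replicate 3, at 1.80 (adjusted p = 0.0296).

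The last of the 8, VIT_13s0067g03390, is annotated to the nucleus and to negative regulation of flowering in long days. It belongs to the 10 genes that vary together and is described with them. For the wider set of genes with GO terms at hand, 3 of the 10 chosen lists held a member of the 150. Beside the counts that follow, 16.1% of all genes tested rose and 11.5% fell from C2 to S, 30.9% rose and 31.6% fell from S to JP, and 9.22% rose and 13.1% fell from C1 to C2. Of the 80 genes with the term response to hormone, 57 were tested from C2 to S, of which 8 rose and 8 fell, from S to JP 24 of 54 rose and 16 fell, and from C1 to C2 7 of 56 rose and 3 fell. Of 35 genes with the term cell wall, 7 of 24 rose from C2 to S, 5 of 25 rose and 14 fell from S to JP, and 6 of 25 rose and 1 fell from C1 to C2. Of 76 genes with the term lipid metabolism, 8 of 53 rose and 7 fell from C2 to S, 17 of 50 rose and 14 fell from S to JP, and 7 of 56 rose and 9 fell from C1 to C2. The 7 other lists held 0 of the 150, a lower bound, since the term lists at hand are in part cut short. VIT_06s0080g00120, with the term phenylpropanoid biosynthetic process, was not counted under secondary metabolism. From C2 to S, 27 of 164 response to stress genes rose and 21 fell, as did 18 and 5 of 102 plastid genes, 12 and 8 of 50 with transcription factor activity, 29 and 17 of 152 of transport, 10 and 1 of 35 of the extracellular region, and 6 and 5 of 38 of carbohydrate metabolism, and 2 of 17 of secondary metabolism rose. From S to JP the same lists, in this order, had 53 higher and 37 lower of 158, 30 and 30 of 100, 14 and 14 of 51, 38 and 51 of 149, 11 and 12 of 35, 10 and 16 of 37, and 8 and 5 of 18.

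**Figure D2:**
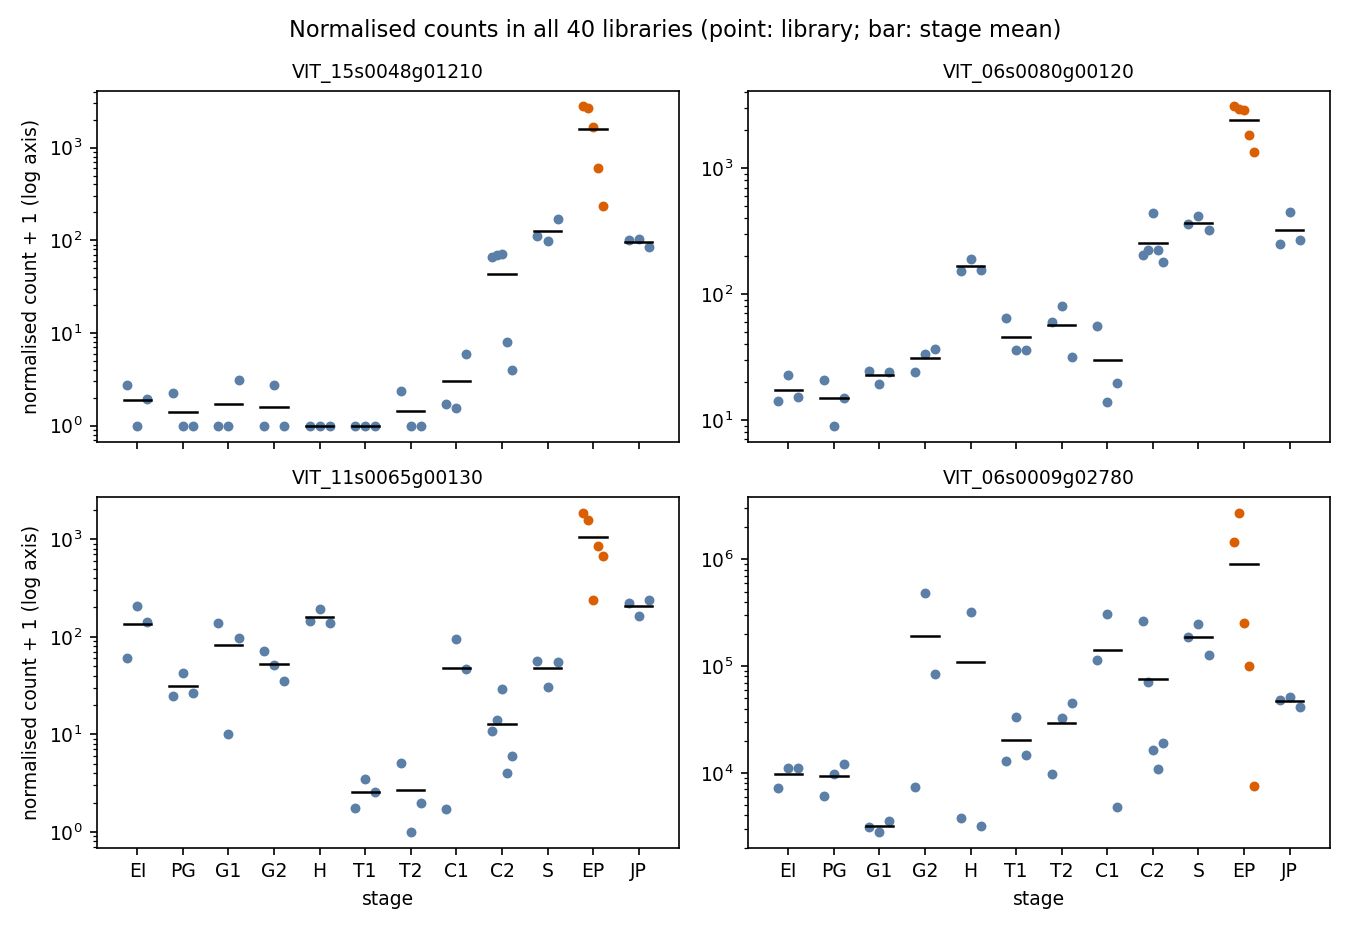
Normalised count plus 1 (log axis) of VIT_15s0048g01210, of the wax and suberin gene VIT_06s0080g00120, of the brassinosteroid gene VIT_11s0065g00130 and of VIT_06s0009g02780 in each of the 40 libraries, by stage. Points are libraries, EP in orange, and bars are stage means. The EP points of the first gene run from 232 to 2778 and those of the last from 7489 to 2739523.

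Within EP, the genes divided the libraries into 1 to 3 on the high side and 4 and 5 on the low side. Of the 150 genes, 113 (75.3%) had both replicates 4 and 5 below all of replicates 1 to 3, against 33.5% of the 15697 genes with an EP mean of at least 100. The highest EP library was replicate 1 for 54 genes, replicate 2 for 58, replicate 3 for 31, replicate 4 for 5 and replicate 5 for 2. The mean of replicates 1 to 3 was a median of 3.19 times that of replicates 4 and 5, where the 15697 genes had a median of 1.03. As shares of the library total, the same medians were 1.1 for the 150 genes and 0.349 for the 15697 genes. The choice used the mean of these same EP values, which favours genes that are high in some of the EP libraries, so the difference from other genes is read no further. Depth, the size factors and the share of the most counted gene all moved with this split, and their part in it was not tested. Libraries 1 and 2 were close, with a chi-square 22.3 times that of sampling noise, but not the same library.

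**Figure D3:**
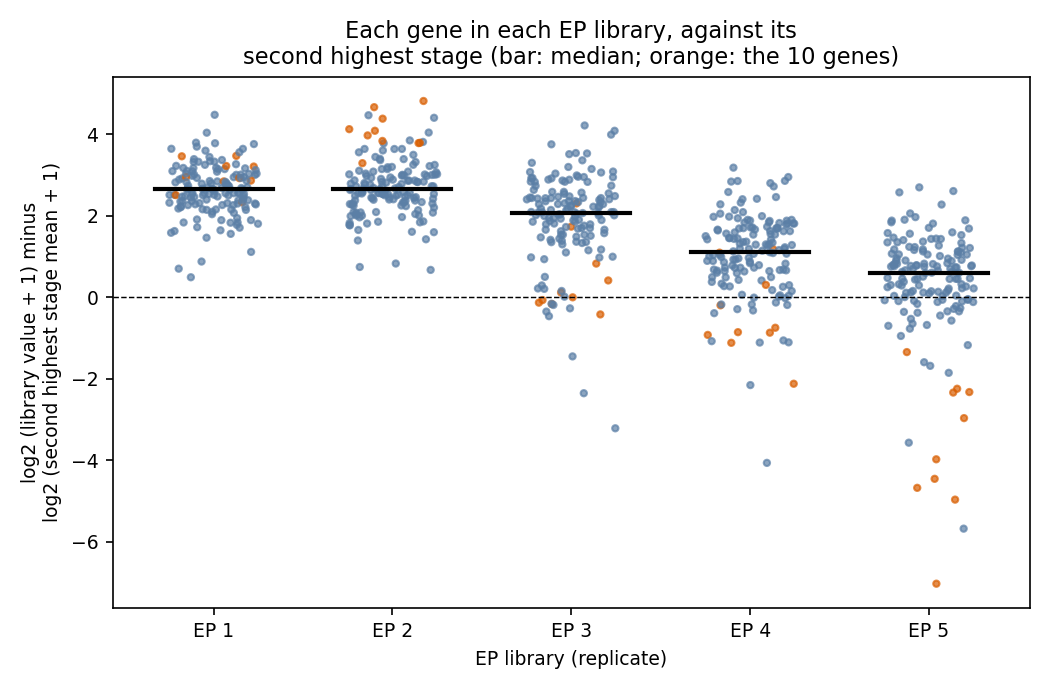
Each of the 150 genes in each EP library, as the log2 difference between the library's normalised count and the gene's second highest stage mean (1 added to both). Points are genes, orange the 10 genes that vary together, and bars the medians, which are 2.64 and 2.66 in replicates 1 and 2, 2.07 in replicate 3 and 0.60 in replicate 5. The dashed line marks equality, and the EP 5 points reach furthest below it.

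For 65 of the 150 genes (43.3%), all 5 EP libraries lay above every one of the other 35 libraries, as they did for 0.988% of the 29971 genes in the table. Since the 150 genes were chosen for a high EP mean, nothing is read from this difference. Among them were VIT_15s0048g01210, VIT_08s0040g02840, VIT_15s0048g01180, VIT_18s0001g01010, VIT_18s0001g00340 and VIT_06s0080g00120. Their median ratio was 4.17. Taken one by one, EP replicates 1 and 2 were above every other stage mean for 150 of 150 genes, replicate 3 for 137, replicate 4 for 128 and replicate 5 for 108. The list was also rebuilt without each EP library, and the library left out was then read for the new 150 genes. EP replicate 1 lay above every other stage mean for 147 of them (15.7% of all genes did), replicate 2 for 148 (15.9%), replicate 3 for 132 (16.2%), replicate 4 for 124 (12.3%) and replicate 5 for 101 (11.4%). The stage means of the other stages were used for both the choice and this reading. The new genes were also chosen for high values in the remaining EP libraries, so nothing is read from the difference from all genes. With EP replicates 4 and 5 alone, 51 of the 150 genes were chosen again, and with replicates 1 to 3 alone 132 were.

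The extreme cases of this split were VIT_08s0007g03030 and VIT_06s0061g00580, singled out after their values were seen. VIT_08s0007g03030 had 33224, 22742 and 51971 in EP replicates 1 to 3 and 1270 and 476 in replicates 4 and 5, next to 587, 924 and 800 in JP. It fell from C2 to S by 1.15 on the log2 scale (SE 0.24, adjusted p = 0.00864) and from S to JP by 1.86 (SE 0.21, adjusted p = 0.000245). EP replicate 4 thus lay above and replicate 5 below all JP libraries, and by these falls JP was lower than S, and S lower than C2. EP replicates 1 to 3 lay above all other libraries. VIT_06s0061g00580 had 5180, 6337 and 8301 against 58.4 and 18.4. At the other end, VIT_19s0014g03710 was highest in EP replicate 4, with 192, 188, 433, 826 and 424 in replicates 1 to 5, and it was at 0 in all 24 dark libraries.

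A subset of 10 genes moved together from library to library within stages. The seed, VIT_06s0009g02780, was picked after its values were seen, and the subset holds every gene whose deviations from the stage means (log2 scale, 35 libraries other than EP) followed those of the seed with a Pearson correlation above 0.8. Among 22407 genes compared, 10 met this limit, the seed included, and all 10 were among the 150. The other 9 are VIT_07s0005g05600, VIT_05s0102g00140, VIT_11s0103g00530, VIT_00s0313g00080, VIT_13s0067g03390, VIT_11s0037g01180, VIT_01s0010g01260, VIT_19s0014g00140 and VIT_12s0035g02010, with correlations from 0.834 to 0.993. The next gene, VIT_01s0026g02470, had 0.782 and is not in the list. The median correlation of the other 140 genes with the seed was 0.0442. These correlations run over libraries that also share their depth and size factor, and are given as a description.

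The 10 genes swung widely in some stages and little in others. The seed had 7323, 485095 and 84236 in G2, 3780, 319942 and 3185 in H, and 113844, 309142 and 4767 in C1. In C2 it had 263236, 70428, 16523, 10819 and 19113. In EP it ran from 2739523 in replicate 2 and 1456009 in replicate 1 through 255230 and 101025 to 7489 in replicate 5, which lay within the range of EI, where it had 7272, 11170 and 11139. In S and JP the replicates were close, at 186470, 245843 and 126430 and at 47849, 51064 and 41229. Over the 10 genes, the highest library of a stage exceeded the lowest by a median of 208-fold in EP, 46.9-fold in H, 18.7-fold in G2, 14.9-fold in C2 and 11.6-fold in C1, but by 2.05-fold in S and 1.55-fold in JP. The high libraries were G2 replicate 2, H replicate 2, C1 replicate 2, C2 replicate 1 and EP replicate 2.

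These 10 genes made up 8.87% of all counts in EP replicate 2 and 5.21% in replicate 1, but 0.762%, 0.922% and 0.106% in replicates 3 to 5. Their share was 5.28% in G2 replicate 2, 3.8% in H replicate 2 and 3.57% in C1 replicate 2, against a median of 0.175% over the 35 libraries other than EP. The other 140 genes took 2.36%, 4.09%, 2.16%, 1.12% and 0.803% in EP replicates 1 to 5 and at most 0.8% in any other library, which is JP replicate 1, so EP was above all other libraries in this share, by a narrow margin in replicate 5. Of the 10, VIT_13s0067g03390, with the flowering term, had 238022, 579082, 29521, 15284 and 2105 in EP and 33218, 47419 and 19129 in S, and it fell from S to JP by 3.06 on the log2 scale (SE 0.37, adjusted p = 0.000309). VIT_11s0103g00530 fell by 2.78 (SE 0.29, adjusted p = 0.000164). Both calls were lost in 1 fit of all 40 libraries (adjusted p = 0.0591 and 0.143). From S to JP, 7 of the 10 fell (31.6% of all genes tested did) and 1, VIT_01s0010g01260, rose, by 1.39 ± 0.48 (log2 fold change ± SE, adjusted p = 0.0355), where 30.9% of all genes tested rose. That rise did not pass in 1 fit of all 40 libraries (adjusted p = 0.356) or without S replicates 1 or 3 or JP replicate 1 (0.0718 to 0.113). EdgeR called 0 from C2 to S (lowest adjusted p = 0.0625) and 0 from C1 to C2 (lowest adjusted p = 0.0956). At an unadjusted p under 0.05 it was 1 in each, and DESeq2 called 0 and 1. Without C2 replicate 1, VIT_13s0067g03390 passed from C2 to S, with a log2 fold change of 2.61 (adjusted p = 0.0136). The cause of the swings was not tested.

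**Figure D4:**
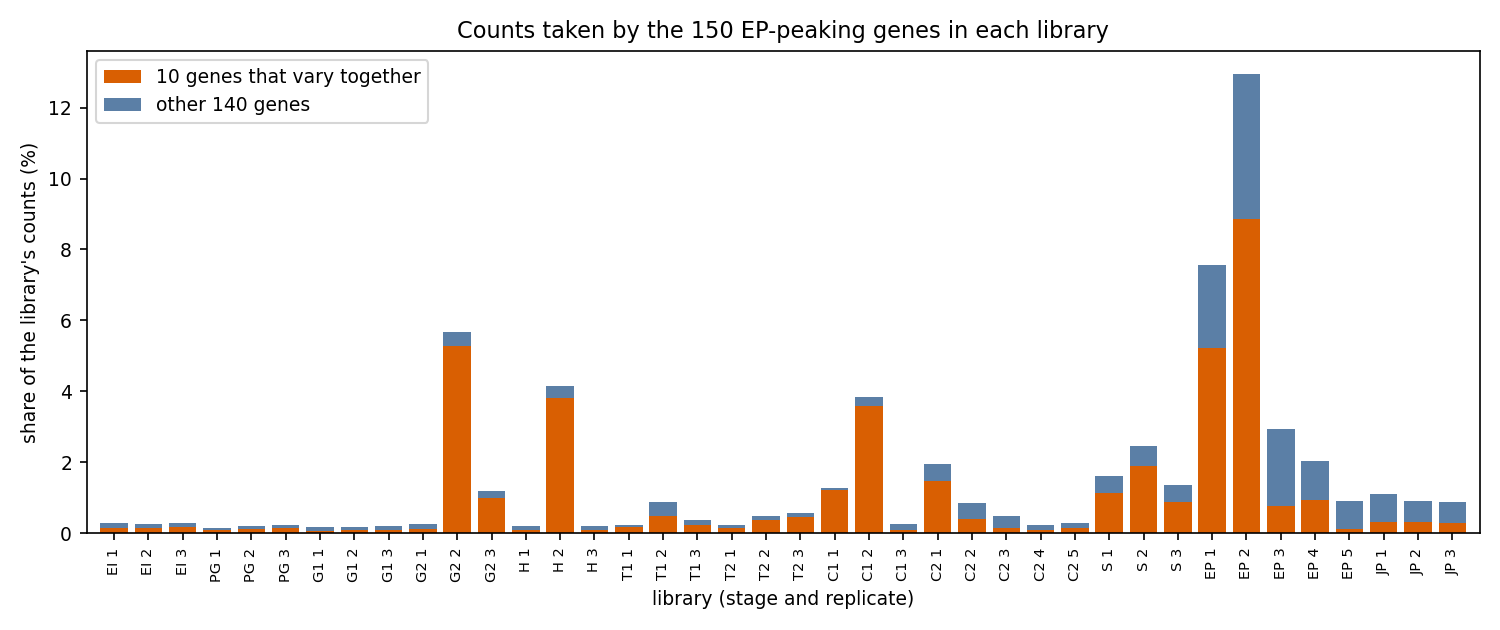
Share of each library's counts (%) taken by the 150 genes in the 40 libraries, split into the 10 genes that vary together (orange) and the other 140 (blue). The highest bars are EP 2 at 13%, EP 1 at 7.57% and G2 2 at 5.68%, and the blue part is largest in EP 2 at 4.09%.

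Among the 150 genes, VIT_13s0101g00220 had the highest EP mean, 923833 ± 916653 (SD, n = 5), a value that also grows with gene length, and it is not in the subset of 10. It had 1068727, 2332118, 1010799, 149318 and 58206 in EP, 280925, 138967 and 142499 in JP and 118490, 120152 and 72579 in S, so EP replicate 4 lay among the JP libraries and replicate 5 below S and JP. VIT_04s0210g00030 had 46418, 116304, 19549, 14864 and 5037 in EP and between 3982 and 6363 in S and JP.

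Another 3 comparisons asked when the 150 genes changed outside EP, with edgeR's quasi-likelihood test and Benjamini-Hochberg adjustment over all genes tested. From C2 to S, the step onto germination medium with gibberellin and auxin, 64 of 134 genes tested rose (47.8%, against 16.1% of 21593 genes) and 2 fell (1.49%, against 11.5%). The remaining 16 were too low to be tested. The median log2 fold change was 1.38 for the 150 genes and -0.04 for all genes tested. The largest rises were those of VIT_17s0000g00830, by 6.71 ± 0.78 (adjusted p = 0.000919), from between 0 and 22 in C2 to 784, 289 and 1603 in S, and of VIT_00s0229g00130, by 5.97 ± 0.91 (adjusted p = 0.00259). The 2 that fell were VIT_08s0007g03030 and VIT_04s0023g02190, the latter by 0.92 on the log2 scale (SE 0.20, adjusted p = 0.0101) from between 412 and 657 to 275, 266 and 251. In 1 fit of all 40 libraries neither fall passed (adjusted p = 0.233 and 0.274). Of the 150 genes chosen for S by the same rule, 131 of 149 rose at this step, and of the 150 chosen for JP 8 of 70 did. For the S list that comparison was part of the choice. For the EP list it was so in part, since S was the second highest stage for 52 of the 150 genes. Genes low in C2 could also pass the count filter through S alone. The difference from all genes is therefore read no further. Without S replicate 3, 31 genes rose and 2 fell. Of all genes tested, 1782 rose and 877 fell in that fit, in place of 3482 and 2488.

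From S to JP, the stages on either side of EP, 33 of 146 genes rose (22.6%, against 30.9% of 21261 genes) and 25 fell (17.1%, against 31.6%). The 150 genes were thus called less often than genes in general, at 39.7% against 62.5%, and their median log2 fold change was 0.02. The choice itself keeps out genes that are high in S or in JP, so this share is read no further. VIT_19s0014g03710 rose most, by 7.25 ± 0.96 (adjusted p = 0.000486), from 0, 0 and 1.51 in S to 159, 40.2 and 156 in JP. VIT_15s0048g00630 rose by 6.41 ± 0.79 (adjusted p = 0.00035), from 0, 5.87 and 13.5 to 996, 236 and 766, and had 3760, 3446, 1978, 1219 and 1542 in EP. Of the 64 genes that rose from C2 to S, 8 rose again to JP and 13 fell. The same counts were not taken over all genes, of which 30.9% of those tested rose and 31.6% fell from S to JP. These 2 counts are therefore a description. With 1 fit of all 40 libraries, 23 rose and 8 fell. Of all genes tested, 5030 rose and 5425 fell in that fit, in place of 6566 and 6715.

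**Figure D5:**
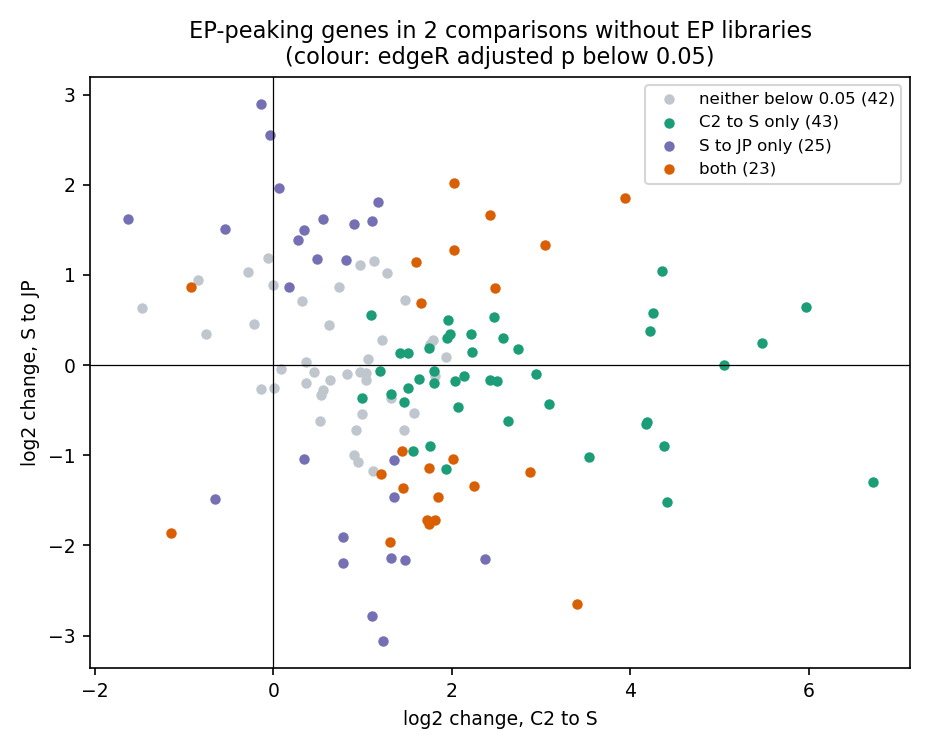
Log2 fold change from C2 to S (x axis) and from S to JP (y axis) of the 133 genes tested in both comparisons, neither of which contains an EP library. Colours mark genes with an adjusted p below 0.05 in neither (42), in C2 to S alone (43), in S to JP alone (25) or in both (23). The same split was not made for all genes, of which 27.6% of those tested passed from C2 to S and 62.5% from S to JP. Most points lie right of 0, and they spread on both sides of 0 on the y axis.

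From C1 to C2, when the cultures moved from dark to long days, 34 of 105 genes tested rose (32.4%, against 9.22% of 22462 genes) and 7 fell (6.67%, against 13.1%). Another 45 were too low to be tested, and genes low in C1 could pass the count filter through C2 alone. These shares are read no further. VIT_06s0061g00730 rose by 6.50 ± 1.44 (adjusted p = 0.0222), from 26.3, 1.07 and 6.18 in C1 to 2061, 2098, 884, 143 and 136 in C2, and had 29483, 30558, 18659, 7277 and 6319 in EP. VIT_13s0067g03790 rose by 5.59 ± 1.32 (adjusted p = 0.0248). VIT_13s0067g01940 and VIT_15s0048g00510 fell by 3.67 (SE 1.04, adjusted p = 0.0379) and 3.64 (SE 1.04, adjusted p = 0.0389) on the log2 scale. Their C1 libraries were unlike, at 1.42, 211 and 110 and at 2.84, 431 and 203. The count of calls at this step hung on single libraries: without C1 replicate 3 it was 1 in place of 41, without C2 replicate 2 it was 3, without C2 replicate 1 it was 4, without C1 replicate 2 it was 10 and without C2 replicate 3 it was 25. The same held for genes in general: in these fits, in the same order, 7, 14, 14, 1091 and 3802 of all genes were called, in place of 5010. The calls of VIT_13s0067g01940 and VIT_15s0048g00510 were lost without any 1 library other than C1 replicate 1, with an adjusted p of 0.0628 to 0.124 and of 0.0546 to 0.131. That of VIT_06s0061g00730 was lost without C1 replicates 2 or 3 or C2 replicates 1 or 2 (0.0546 to 0.0882), and that of VIT_13s0067g03790 without C1 replicates 2 or 3 (0.067 and 0.0925).

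Over all 11 stages without EP, 148 of 149 genes tested varied (94.4% of all genes did), which leaves no room for a difference. Within the 8 dark stages, 89 of 105 genes tested varied (84.8%, against 67.5% of 23337 genes), as did 102 of 119 of the genes chosen for S and 81 of 102 of those chosen for JP. Another 45 of the EP list were too low to be tested. Genes low in most dark stages could pass the count filter through a dark stage where they were high. The shares that varied are therefore read no further. VIT_08s0040g02840 was among the 89 that varied (edgeR F test, adjusted p = 5.19e-06). It had 127, 201 and 138 in H and 6.08, 2.45 and 4.68 in T1.

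This early presence followed by a low in both torpedo stages was shared by other genes. By a limit set after these values were seen, a mean normalised count of at least 10 over the 5 stages from EI to H and an early mean at least 5 times the mean of T1 and T2 (1 added to both), it was found in 20 of the 85 genes that had such an early mean (23.5%), against 694 of 20814 genes in the whole table (3.33%). These shares are a description. The brassinosteroid gene VIT_11s0065g00130 was among the 20, with an early mean of 91.2 against 1.64 in the torpedo stages. So was VIT_07s0104g01260, with terms for auxin, cytokinin and brassinosteroid, with 423 against 30.5. The deepest dip was that of VIT_15s0048g00510, which had 340, 1017 and 817 in EI, 388, 487 and 343 in H, 3.8, 7.36 and 5.46 in T1 and 4.1, 0.637 and 15.7 in T2. It came back in S, at 241, 220 and 563, and had 4527, 4344, 805, 1415 and 1402 in EP. EP replicate 3 of this gene lay within the range of EI. VIT_18s0075g00700 and VIT_18s0166g00250 were also singled out after their values were seen. VIT_18s0075g00700 had 116, 331 and 246 in EI and no more than 4.68 in any T1 or T2 library, and it reached 1218, 1260, 202, 1235 and 582 in EP, with replicate 3 again among the EI values. VIT_18s0166g00250 kept its EP libraries, from 2559 to 20812, above the highest early library, 756 in H. In S, all 20 had a mean above that of the torpedo stages. They were chosen for low torpedo values, and the same share of the 694 genes was not taken, so this is read no further.

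The genes whose profile over the 35 other libraries was most like that of VIT_15s0048g01210 (Pearson's r of log2 values) were VIT_04s0023g01960 (0.957), VIT_03s0038g04000 (0.954) and VIT_13s0067g03790 (0.95). VIT_04s0023g01960 had 926, 1055, 386, 396 and 167 in EP and 79, 79.1, 64.6, 13.1 and 9.02 in C2, after no more than 3.71 in any dark library. VIT_03s0038g04000 had 3734, 3325, 1968, 1662 and 640 in EP and between 11.1 and 34.5 in all dark libraries. All 4 genes were higher in C2 replicates 1 to 3 than in 4 and 5.

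Position was read from the identifiers, which carry a chromosome number, a scaffold and an order along it. The 150 genes carried all 19 chromosome numbers, and 8 were on unplaced scaffolds. There were 8 pairs with numbers within 50 of each other on 1 scaffold and 0 runs of 3. Their profiles over the 35 other libraries correlated from 0.356 (VIT_04s0210g00030 and VIT_04s0210g00050) to 0.959 (VIT_13s0067g03790 and VIT_13s0067g03830). VIT_12s0028g02850 and VIT_12s0028g02870, singled out after their values were seen, correlated at 0.915 and had 26996, 26568, 24003, 9770 and 8549 and 1420, 1421, 871, 203 and 220 in EP. The sources used here do not say how reads matching several genes were counted, so values of such neighbours are uncertain.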

How the data were processed

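RNA-seq was performed on 40 samples. The authors removed rRNA, sequenced read pairs, mapped them with BBMap to the 12X genome and, in R 4.0.4, counted the reads of each gene. The deposited values are these raw counts. Strand use and the treatment of reads with several matches are not given in the sources used here. The labels do not say that replicates came from separate cultures, so p-values measure the spread between these samples. Size factors were set over the 19245 genes counted in every library. Stages were compared with edgeR 4.0.16 (quasi-likelihood test, TMM, filterByExpr, Benjamini-Hochberg, adjusted p threshold 0.05) and, as an alternative, DESeq2 1.42.0, in R 4.3.3, and tested on simulated data. Python 3.11.15, numpy 2.4.6, pandas 2.3.3 and matplotlib 3.10.9 did the rest. Depth limits precision most for low genes.

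The genes, lists and tests were chosen with earlier results of these data known. Named genes are those with a GO entry, the first 10 by ratio, the 5 with the highest EP mean, the 3 on each side of the limit, the 2 with the largest change per direction and comparison, and the 3 most like the first in profile. A few others, such as genes of the torpedo low, of the subset that varies together and of neighbouring pairs, were picked after their values were seen. RefSeq's gene list of another assembly matched 0 identifiers, so no sequences or coordinates are given. Alternatives were other scalings, medians, minimums and added values for the list, DESeq2, DESeq2 size factors, no filter, a replicate block, 1 fit of all libraries, and leaving out each library in turn.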

Additional observations from a re-analysis of the deposited data

Results flagged for a closer look

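Within C2, 5 of 24 groups of 5 libraries examined (C2 and EP, for 12 quantities) had 1 library far from the others, judged by the gap to its neighbour over the whole range, against Dixon's critical value of 0.710. For normally distributed values, chance flags about 1 in 20. The values here were read on the linear scale, not the log scale. Over the 10 genes that vary together, the highest C2 library exceeded the lowest by 4.6-fold to 40.4-fold, so that rate may not hold. The flags are given as a description. In all 5 the library was C2 replicate 1, and the quantities are not independent, since 4 are genes of the subset that varies together. The share of counts of the 10 genes was 1.46% there, and 0.382% in the next library. The normalised count was 263236 for VIT_06s0009g02780, with 70428 next, and 147512 for VIT_07s0005g05600, with 30544 next. It was 50246 for VIT_13s0067g03390, with 11979 next, and 41159 for VIT_11s0103g00530, with 7331 next. The cause was not tested.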

How the results depend on the processing

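The choice of the 150 genes depended on the minimum EP mean, the scaling and the EP libraries. Scaled by total counts in place of size factors, 82 of the 150 were chosen again, with a minimum EP mean of 500 it was 72, and without EP replicates 1, 2 and 3 it was 51. Leaving out 1 library at a time kept between 125 (without EP replicate 3) and 150. The median over libraries kept 100. Of the 10 genes that vary together, the list without EP replicate 2 lost 7 and kept 3. It kept 2 of them with the median over libraries, 3 when scaled by total counts and 0 without EP replicates 1, 2 and 3. With TMM scaling it kept 9 of them.

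From C2 to S, the number called lay between 33 and 75 when 1 library was left out (31 to 73 higher, 2 lower in each), and 1 was lower with 1 fit of all 40 libraries. From S to JP it lay between 47 and 60 (24 to 36 higher, 21 to 31 lower), and was 31 with 1 fit of all libraries, 8 of them lower. From C1 to C2 it lay between 1 and 55 (1 to 40 higher, 0 to 15 lower). There DESeq2 called 78 (67 higher, 11 lower), and edgeR with 1 fit of all libraries called 93 (79 higher, 14 lower). Of all genes, DESeq2 called 8054 of 28448 and the 1 fit 9593 of 24862. Over the 11 stages the leave-one-out range was 148 to 150 and over the dark stages 83 to 99. For all genes, the leave-one-out ranges were 2659 to 6105 from C2 to S, 11046 to 13059 from S to JP and 7 to 8655 from C1 to C2. They were 23047 to 24042 over the 11 stages and 13829 to 17923 over the dark stages.

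With the replicate number as a block, 53 genes were called from C2 to S (50 higher), 50 from S to JP (28 higher) and 0 from C1 to C2 (0 higher, 0 lower), where the unadjusted p was under 0.05 for 52 genes. Of all genes, this block called 4955 of 21593 from C2 to S, 11863 of 21261 from S to JP and 0 of 22462 from C1 to C2. The numbers do not pair the samples: deviations of same-numbered libraries correlated from -0.0513 to 0.0985 from C2 to S, from -0.176 to 0.0679 from S to JP and from -0.024 to 0.0934 from C1 to C2. Single genes were followed through the alternatives only where they had a GO entry or a largest change, along with VIT_04s0023g01960 and VIT_01s0010g01260. No call of these genes changed direction. The sign of the log2 fold change turned 12 times, in 4 comparisons of a gene, all without a call on either side (lowest adjusted p = 0.47): VIT_13s0067g03390, VIT_16s0098g01910 and VIT_04s0023g01240 from C1 to C2 and VIT_07s0104g01260 from S to JP. The cause of these differences was not tested.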
